A study of Drosophila melanogaster with 35 samples.

Results

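Wds peaks without DMAD are the 860 regions of the merged Wds peak list that overlap no peak of the merged DMAD list by even 1 bp on chromosome arms 2L, 2R, 3L, 3R, 4 and X. They are 29.1% (95% Wilson interval 27.5 to 30.7) of the 2959 Wds regions on these 6 arms, and the other 2099 overlap at least 1 of the 5092 DMAD peaks there. The series studied DMAD, the fly Tet-family protein encoded by CG43444 (CG2083 in the labels, symbol Tet in RefSeq), and N6-methyladenine in DNA (6mA), in Drosophila melanogaster BG3C2 cells, a line the labels call neuronal, and in brains. Knockdown cells received 580 bp dsRNA against CG2083 for 144 hours, with serum starvation before the dsRNA; the treatment of control cells, the DMAD-knockout allele and the age of the flies are not given in the labels used here. Chromatin immunoprecipitation libraries numbered 3 for DMAD, 2 control and 2 knockdown for Polycomb (Pc), and 1 control and 1 knockdown each for Wds and for histone H3 lysine 4 trimethylation (H3K4me3). The series also held libraries of H3 lysine 27 trimethylation (1 control, 1 knockdown) and MNase (2 control, 2 knockdown). These were not used here. There were 3 control and 3 knockdown RNA libraries of BG3C2 and 2 control and 2 knockout RNA libraries of brain, and 6mA libraries numbered 3 and 3 in BG3C2 and 1 and 1 in brain. The BG3C2 6mA libraries of either condition are numbered 1-1, 1-2 and 2, so fewer than 3 may be separate replicates.

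The deposited Wds list carries positions only, and the labels do not say whether the control library, the knockdown library or both entered it. No change of Wds binding on knockdown can therefore be read from it. Lists for H3K27 acetylation (H3K27ac) and RNA polymerase II (Pol II) exist for control and knockdown, but none of the labelled samples used here belongs to them, and the control Pol II list carries the cell name BG3C3 where the knockdown list carries BG3C2. Sequencing depth is unknown for every list, so a region missing from a list had no called peak, which does not show that the protein was absent. Peaks of 1 list are not replicates: the 95% intervals below cover counting error only and say nothing of the spread between libraries. Of 7 neuronal marker genes only elav and Syx1A reached an FPKM of 1 (fragments per kilobase of transcript, scaled to library size) in control BG3C2 cells in the authors' deposited table, at 12.2 and 24.0, and 4 of 5 glial and 4 of 5 haemocyte markers did.

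Wds (will die slowly) is the fly homologue of WDR5, a WD-repeat protein shared by the COMPASS-type complexes that methylate histone H3 at lysine 4, and it is also found in other chromatin complexes. H3K4me3 marks the starts of active genes, and H3K27ac marks active promoters and enhancers. Pc is the chromodomain subunit of Polycomb repressive complex 1, which keeps developmental genes silent.

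Most DMAD-free peaks, 584 (67.9%), had a DMAD peak within 10000 bp, and 80 (9.30%) lay farther than 50000 bp from one. Where a Wds peak met DMAD, the overlap was usually complete, with a median of 99.6% of the Wds peak covered. Of the DMAD-free peaks, 41 had a DMAD peak within 100 bp and 178 (20.7%) within 1 kb, against a median gap of 4624.5 bp and a longest gap of 611909 bp. Just inside the limit stood peaks with gaps of 1 bp in CG33129, 5 bp in dikar and 8 bp at alphaTub84B, an alpha-tubulin gene. Just outside it stood peaks that shared 8 bp with DMAD in Gef26, 9 bp in kibra, a gene of the Hippo pathway, and 15 bp in Top2, the topoisomerase II gene. The farthest member, on 2L from 22874172 to 22875300 (dm3) in the locus of cta, which encodes a G protein alpha subunit, carried H3K4me3, H3K27ac and Pol II.

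Over the 6 arms together, the DMAD-free peaks differed most from the other Wds peaks in Pc and Pol II and hardly at all in H3K4me3. Pc overlapped 184 of the 860 DMAD-free peaks, 21.4%, and 65.1% of Wds peaks with DMAD, a difference of -43.7 percentage points (95% Newcombe interval -47.0 to -40.2). The control Pol II list overlapped 490, or 57.0%, against 78.1%, a difference of -21.1 points (-24.9 to -17.4). The control H3K27ac list overlapped 698, or 81.2%, against 90.2%, a difference of -9.02 points (-12.0 to -6.21) that was -4.61 points within bins of peak width and -1.68 points within the H3K4me3 class. The control H3K4me3 list overlapped 601, or 69.9%, against 70.7%, and the interval of the difference ran from -4.50 to 2.76 points. Among peaks without Pc, however, it overlapped 68.5% of DMAD-free peaks and 53.5% of those with DMAD. Among peaks with Pc the shares were 75% and 79.9%. For control Pol II the shares were 53.0% and 61.4% without Pc, and 71.7% and 87.0% with Pc. No interval of the difference was taken within these Pc groups. Each difference was read as past counting error where its interval excluded 0, and neither these 10 intervals nor those given later were adjusted for their number.

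**Figure D1:**
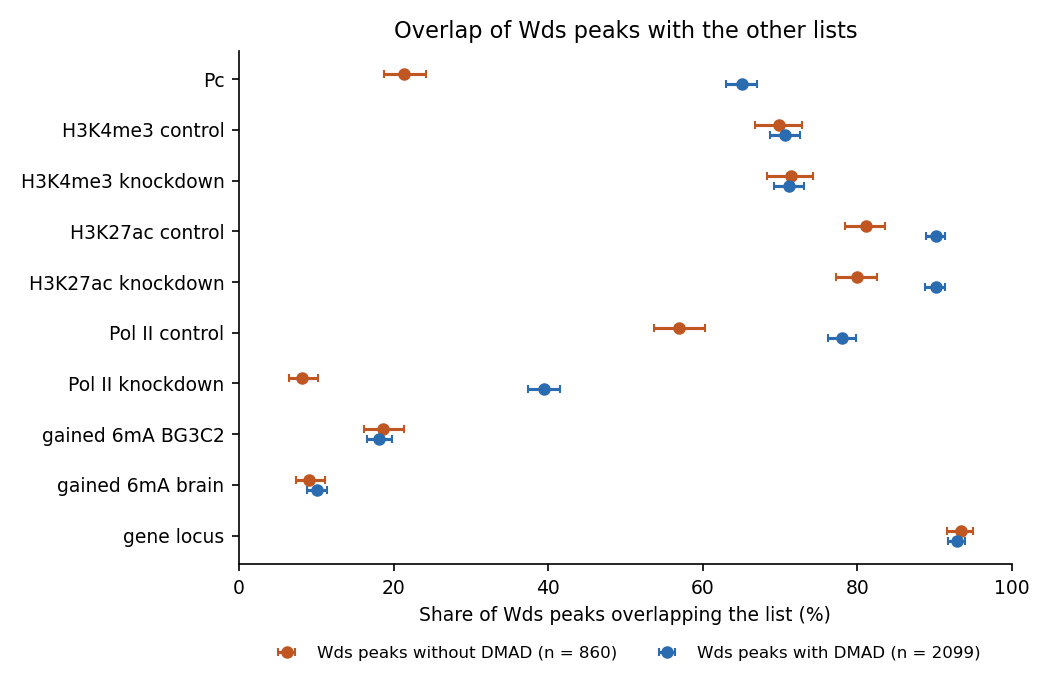
Share of Wds peaks, in percent, that overlap each list by at least 1 bp, for the 860 peaks without DMAD and the 2099 with DMAD; points are shares and bars are 95% Wilson intervals. The intervals of Pc (21.4% and 65.1%) and of both Pol II lists stand clear of each other, while those of H3K4me3 and of both gained 6mA lists overlap.

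The H3K4me3 comparison also depended on peak width and on the strength of the H3K4me3 peaks, and it differed on X, as given below. With the Wds peaks compared within 4 bins of width, the difference was 4.59 points in favour of the DMAD-free peaks, and with the rule set at DMAD cover under 50% it was 5.26 points. Counting only the upper 50% of control H3K4me3 peaks by score turned it to -13.9 points. The score is the authors' own and ranks peaks within their list. Control H3K4me3 peaks at DMAD-free peaks had a median score percentile of 49.7, against 79.3 at Wds peaks with DMAD and 41.4 where there was no Wds peak. The percentile of 79.3 is a rank shared by tied peaks of the highest scores, and it was also the upper quartile of each set. The share of peaks at the highest score group, where ties begin, was 36.1% at DMAD-free peaks and 57.8% at Wds peaks with DMAD. Over all control H3K4me3 peaks it was 39.4%. These H3K4me3 peaks were also narrower, with a median of 1307 bp against 1743.5 bp.

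Combinations of marks were counted next. H3K4me3, H3K27ac, Pol II and Pc stood together at 119 DMAD-free peaks (13.8%) and at 50.0% of Wds peaks with DMAD. The same combination without Pc was the most frequent among the DMAD-free peaks, with 307 (35.7%) against 17.2%. H3K4me3 and H3K27ac without Pol II or Pc were found at 150 (17.4%) against 1.95%. None of these lists touched 75 DMAD-free peaks (8.72%), against 2.33% of the others.

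Pc stood without H3K4me3 at 12 of the 110 DMAD-free peaks with H3K27ac only and at 32 of the 135 with neither mark, as defined by class below. The widest, on 3L from 625555 to 631512, lay at ban, the bantam microRNA that promotes growth and blocks cell death, and carried H3K27ac, Pol II and gained 6mA. A peak on 3R from 2737564 to 2739201 in the locus of the Hox gene Antp carried Pc and gained 6mA but neither H3K4me3 nor H3K27ac. It lay 45622 bp from the nearest DMAD peak. Other wide ones lay at CG12104 and CG13917, at Tmhs, and on 2L and 4 where no gene locus was found. Of the Polycomb targets named by control FPKM, the peaks at dpp, a BMP-type ligand, and toy, a Pax6 gene, carried Pc without H3K4me3 or H3K27ac. The peak at bi, a T-box gene, carried neither Pc nor a histone mark, and one at the homeobox gene ct carried H3K27ac without Pc. In the authors' deposited table the control FPKM was below 1 for dpp (0.42), toy (0.19) and bi (0.23), with and without Pc. It was 21.0 for ct.

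A Wds peak was most often DMAD-free on the X and on the small chromosome 4. On X, 171 of 380 Wds peaks lacked DMAD, 45% (40.1 to 50.0), against 26.7% (25.0 to 28.5) over the autosomes, a difference of 18.3 points (13.1 to 23.6). On chromosome 4 it was 9 of 13 peaks (69.2%, 42.4 to 87.3). The large autosomal arms ran from 21.7% on 2R and 25.3% on 3R to 28.6% on 2L and 31.5% on 3L, and the intervals of 2L, 3L and 3R overlapped each other. The X held 19.9% of the DMAD-free peaks and 9.96% of the Wds peaks with DMAD, a difference of 9.93 points that was 4.73 points within bins of peak width. The comparison of arms was chosen after the data were seen.

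**Figure D2:**
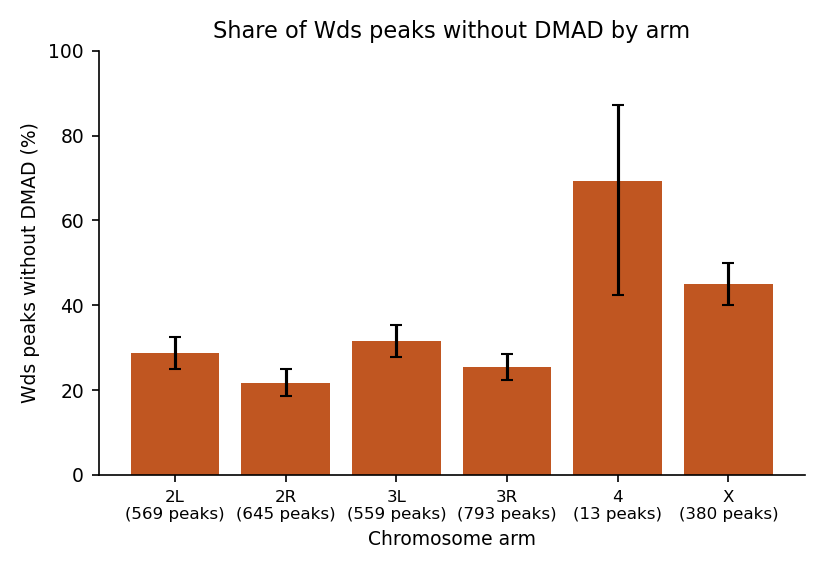
Share of Wds peaks without a DMAD peak, in percent, on each chromosome arm; bars start at 0, error bars are 95% Wilson intervals and the number of Wds peaks is under each arm. X (45%) stands above every large autosomal arm, and chromosome 4 rests on 13 peaks.

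The lists themselves differed in their share on X. It was 8.01% for DMAD and 7.12% for Pc, 12.8% for Wds, 10.9% for control Pol II, 17.9% for control H3K4me3 and 19.0% for control H3K27ac. Whether this spread between lists bears on the excess of DMAD-free peaks on X was not tested. DMAD-free peaks on X were narrower (median 1045 bp, against 1249 to 1532 bp on the other arms) and rarely carried Pc, 7.02% against 25.0% on the autosomes. They overlapped windows of gained 6mA more often than autosomal ones, 24.6% against 17.1%, a difference of 7.44 points (0.867 to 14.9). Wds peaks with DMAD showed the same on X, with 27.8% against 17.0% for gained 6mA (10.7 points, 4.82 to 17.3), 52.2% against 66.5% for Pc, and a median width of 1425 bp against 1521.5 to 1748 bp on the other arms. Control H3K4me3 on X overlapped 70.2% of DMAD-free peaks and 57.9% of those with DMAD, a difference of 12.3 points (2.56 to 21.6). On the autosomes that difference was -2.31 points (-6.35 to 1.60). The densest run of DMAD-free peaks in 50 kb was also on X, with 6 peaks from 7805829 to 7853741 at genes including the ribosomal protein genes RpS14a and RpS14b, the fascin gene sn, and sws, a neuropathy target esterase gene.

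By their histone marks the DMAD-free peaks fell into 3 classes, a comparison added after the data were seen. An H3K4me3 peak of either list lay on 615 (71.5%), H3K27ac without H3K4me3 on 110 (12.8%), and neither mark on 135 (15.7%). Among Wds peaks with DMAD the shares were 71.8%, 20.6% and 7.62%. The DMAD-free peaks thus held fewer of the H3K27ac-only class, a difference of -7.79 points (-10.5 to -4.86), and more with neither mark, a difference of 8.08 points (5.49 to 10.9).

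The classes lay at different places relative to genes. The midpoint of H3K4me3 members was within 500 bp of an end of a gene locus in 76.4%, against 14.5% of the H3K27ac-only class and 26.7% of those with neither mark. Loci are spans from the authors' tables without strand, so a start cannot be told from an end. Over all DMAD-free peaks 60.7% (57.4 to 63.9) lay that near, against 52.4% (50.2 to 54.5) of Wds peaks with DMAD. Pol II of the control list lay at 70.7% of the H3K4me3 class, 25.5% of the H3K27ac-only class and 20% of the class with neither mark.

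At an overlap of 1 bp, gained 6mA did not differ beyond counting error between Wds peaks without and with DMAD. Windows that the authors list as gaining 6mA in BG3C2 overlapped 160 DMAD-free peaks, 18.6%, and 18.1% of Wds peaks with DMAD, a difference of 0.501 points (-2.49 to 3.67). The brain list overlapped 78, or 9.07%, against 10.1%, a difference of -0.983 points (-3.19 to 1.45). The level of these shares depended on the overlap asked for. Where a window had to cover 50% of the peak, the share of DMAD-free peaks was 11.0% for BG3C2 and 1.16% for brain, and where it had to hold the peak's midpoint 12.4% and 3.60%. The brain difference was then 0.0194 and 0.889 points, neither past counting error. Comparing within bins of peak width gave 3.47 points for BG3C2, and asking that a window cover 50% of the peak gave 3.28 points, both past counting error. Of 5954 gained windows in BG3C2, 186 (3.12%) lay on a DMAD-free peak.

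Within the DMAD-free peaks gained 6mA varied with the class. It lay on 38 of the 110 H3K27ac-only peaks (34.5%), on 93 of the 615 H3K4me3 peaks (15.1%) and on 29 of the 135 with neither mark (21.5%). H3K27ac-only peaks exceeded H3K4me3 peaks by 19.4 points (10.6 to 29.1). In the brain list the shares were 15.5%, 7.64% and 10.4%, and the first exceeded the second by 7.81 points (1.75 to 15.9). Wds peaks with DMAD gave 25.2%, 15.5% and 23.8% in BG3C2. In the H3K27ac-only class the DMAD-free peaks were higher by 9.31 points, with an interval whose lower bound was 0.0283. Of this class, 8.18% of DMAD-free peaks and 1.62% of those with DMAD lay in the distal 3 Mb of 3L, where peaks were wider. Gained 6mA lay on 36.4% of all DMAD-free peaks in that stretch and on 20% of those with DMAD. The class difference was not computed outside the stretch or within bins of width.

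**Figure D3:**
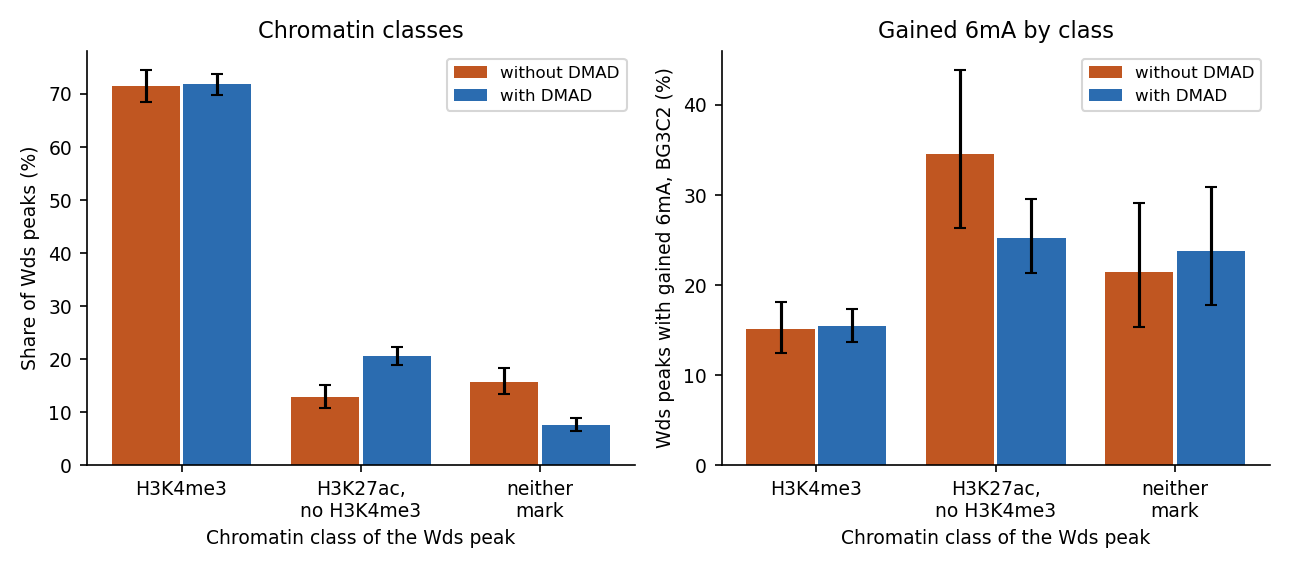
Left, share of Wds peaks in each chromatin class; right, share of the peaks of each class that overlap a BG3C2 window of gained 6mA, both in percent, with 95% Wilson intervals. DMAD-free H3K27ac-only peaks are the class with the highest gained share, 34.5%.

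Gain in both BG3C2 and brain was found at 28 DMAD-free peaks (3.26%), against 2.86% of Wds peaks with DMAD. The class split was 16 with H3K4me3, 7 with H3K27ac only and 5 with neither. The widest lay at bab1, a BTB transcription factor gene of limb and ovary development (3L, 1061420 to 1067831), at ban, and at eff, which encodes a ubiquitin-conjugating enzyme (3R, 10563294 to 10568487). Others lay at pr-set7, the histone H4 lysine 20 methyltransferase gene, and at ex, a Hippo pathway gene (2L, 429878 to 432250).

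After knockdown the H3K4me3 list kept nearly every DMAD-free peak, and the Pol II list kept few. Of 601 DMAD-free peaks in the control H3K4me3 list, 600 (99.8%) were in the knockdown list, against 99.1% for Wds peaks with DMAD, and the interval of the difference ran from -0.142 to 1.34 points. Over all control H3K4me3 peaks the share was 94.6%. H3K27ac was kept at 97.9% against 99.1%, a difference of -1.25 points (-2.66 to -0.253). Of 490 DMAD-free peaks in the control Pol II list, 55 (11.2%) were in the knockdown list, against 48.7% with DMAD, a difference of -37.5 points (-40.9 to -33.5). The share was 50.2% over all control Pol II peaks. The share kept was not computed by Pc, but the knockdown list itself differed with it. Among Wds peaks with DMAD it overlapped 54.0% of those with Pc and 12.3% of those without. The control list overlapped 87.0% and 61.4% of these. Among DMAD-free peaks the knockdown list overlapped 16.3% with Pc and 5.92% without, and the control list 71.7% and 53.0%.

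The share kept was lower in each class. It was 52 of 435 DMAD-free peaks against 722 of 1411 (51.2%) in the H3K4me3 class, 1 of 28 (3.57%) against 34.6% in the H3K27ac-only class, and 2 of 27 (7.41%) against 28.3% with neither mark. The knockdown Pol II list as a whole overlapped control H3K4me3 peaks at 24.6% of its regions, where the control list did at 55.2%, and only 3.21% of it lay on X. Because the lists come from separate calls of unknown depth, and the control list carries another cell name, a loss of Pol II cannot be told apart from a difference between the lists.

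A single DMAD-free peak was in the control H3K4me3 list only, at ana1, a centriole gene (3R, 20369011 to 20370100). In the knockdown list only were 14 (1.63%). The widest lay at lola, a BTB transcription factor gene of axon growth (2R, 6427547 to 6431453), at bab2, the neighbour and relative of bab1 (3L, 1176454 to 1178981), and at pyd, a cell junction gene (3R, 4671481 to 4673890). The knockdown H3K4me3 peaks at these 14 had a median score percentile of 5.32, near the bottom of their list, and 8 of the 14 had Pol II in the control list.

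DMAD-free peaks were narrower than Wds peaks with DMAD, with a median of 1224 bp (quartiles 1042 and 1633, range 570 to 10453) against 1576 bp, and farther from the next Wds peak, 9068 against 5006 bp. The widest were concentrated at the tip of 3L. Of the 10 widest, 8 lay in the distal 3 Mb of 3L, as did 15 of the 20 widest but only 22 of all 860. In that stretch the median width was 4645.5 bp, against 1207 bp elsewhere. The widest of all, 10453 bp from 677864 to 688316, covered CG17129, CG3344, CG3386 and ebd1. Another, from 737568 to 745002, lay at emc, which encodes an inhibitor of proneural transcription factors. The peak from 2768866 to 2776319, lay at Atg2, an autophagy gene.

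**Figure D4:**
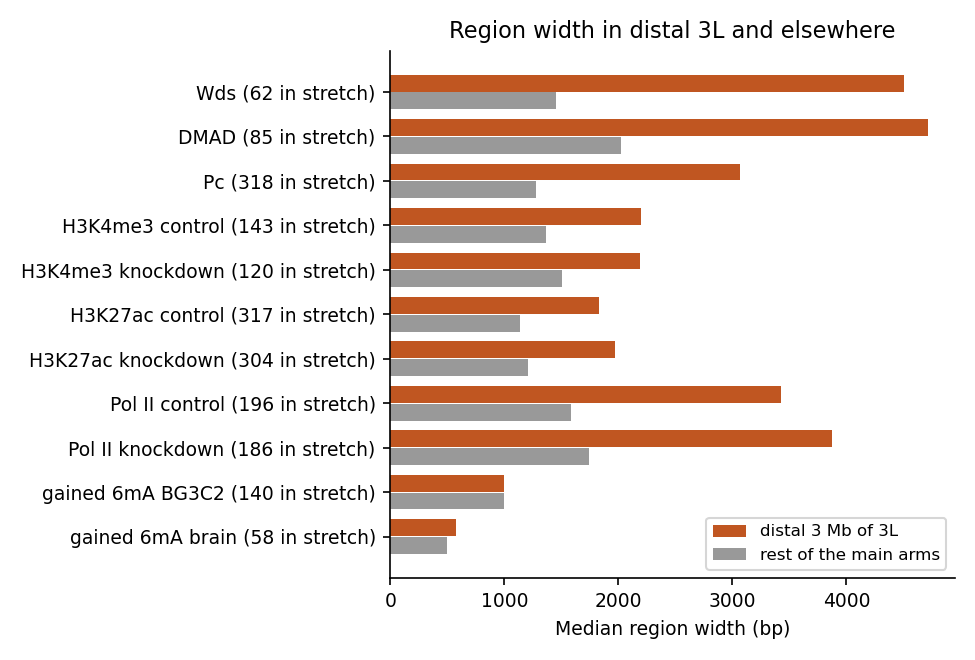
Median width in bp of the regions of each list within the distal 3 Mb of 3L and over the rest of the main arms; the number in the stretch follows each name and bars start at 0. Each of the 9 BG3C2 peak lists is wider in the stretch. Gained 6mA regions of BG3C2 are windows at set positions, with a median of 1000 bp in both places, so they offer no contrast in width. The brain list of gained 6mA has 573.5 bp in the stretch and 497 bp elsewhere.

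The excess of width at the tip of 3L was shared by every BG3C2 peak list. Wds peaks with DMAD had a median of 4501 bp there against 1566 bp elsewhere, DMAD peaks 4714 against 2023 bp, and Pc peaks 3069 against 1277 bp. H3K4me3 peaks of the control list had 2202 against 1368.5 bp. Genes tested in the stretch had a median control FPKM of 41.5 against 23.5 elsewhere in BG3C2, and of 19.6 against 21.7 in brain, in the authors' deposited tables. The part of these levels in the widths was not tested. The stretch was chosen after the data were seen. Outside it the widest members lay near the left end of X (6040 to 14242), where no gene locus was found, and at the origin recognition gene Orc4 and the peptide hormone gene ETH (2R, 20678610 to 20685539).

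The locus of the target gene itself held a DMAD-free peak. It ran over 5459 bp on 3L from 2872676 to 2878134, within the CG43444 locus as deposited (2786205 to 2879158), carried H3K27ac without H3K4me3, and overlapped gained 6mA. The peak lay in the distal 3 Mb of 3L, where DMAD-free peaks had a median width of 4645.5 bp. In that stretch 8 of 22 (36.4%) overlapped gained 6mA of BG3C2. The locus also held 2 Wds peaks with DMAD. CG43444 measured 65.9 FPKM in the control and 34.9 FPKM in the knockdown column of the authors' deposited table, a log2 fold change of -0.91 that did not pass their adjustment (Cuffdiff q = 0.706). In brain it was 39.8 in control and 40.4 in knockout in the authors' deposited table and so did not separate the genotypes; which part of the gene the allele removes is not given in the labels used here. The wds gene held no DMAD-free peak and 2 Wds peaks with DMAD. Its FPKM in the authors' deposited table was 76.6 and 70.2.

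Most genes at DMAD-free peaks were expressed, and few of these genes passed the test after knockdown. The peaks overlapped the loci of 1918 genes, of which 563 also held a Wds peak with DMAD. Of these 1918 genes, 1467 (76.5%) had a control FPKM of at least 1 in the authors' deposited table. That share was 79.8% for genes at Wds peaks with DMAD and 53.2% for all genes. For genes at DMAD-free peaks with neither mark it was 41.5%. The median control FPKM of the 1918 genes in the authors' deposited table was 20.1, against 22.2 for genes at Wds peaks with DMAD and 2.08 for all genes. By class it was 22.5 with H3K4me3, 6.38 with H3K27ac only and 0.23 with neither mark. Of genes on the main arms, 12.9% lay at a DMAD-free peak, and of those with a control FPKM of at least 1, 10 and 100 in the authors' deposited table it was 18.3%, 19.5% and 20.8%.

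On knockdown 1 of 1525 tested genes at DMAD-free peaks rose at a Cuffdiff q below 0.05 in the authors' deposited table and 0 fell, where 0.22% of all tested genes rose and 0.0347% fell. At an unadjusted p below 0.05 it was 12 higher (0.787%, against 1.6% of all) and 7 lower (0.459%, against 0.717% of all). The median log2 fold change was -0.0150, against -0.00861 over all genes and -0.0222 at Wds peaks with DMAD. By class, with H3K4me3, H3K27ac only and neither mark, the median at Wds peaks with DMAD was -0.02, -0.12 and -0.05. At DMAD-free peaks it was -0.01, -0.06 and -0.09. In brain 0 of 1314 tested genes rose and 1 fell in the authors' deposited table, where 0.387% of all rose and 0.375% fell. At an unadjusted p it was 6 higher and 11 lower there, against 1.92% and 1.58% of all. Since each group has 1 FPKM per gene, the spread of its libraries cannot be given, and the labels do not say that libraries came from separate cultures.

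**Figure D5:**
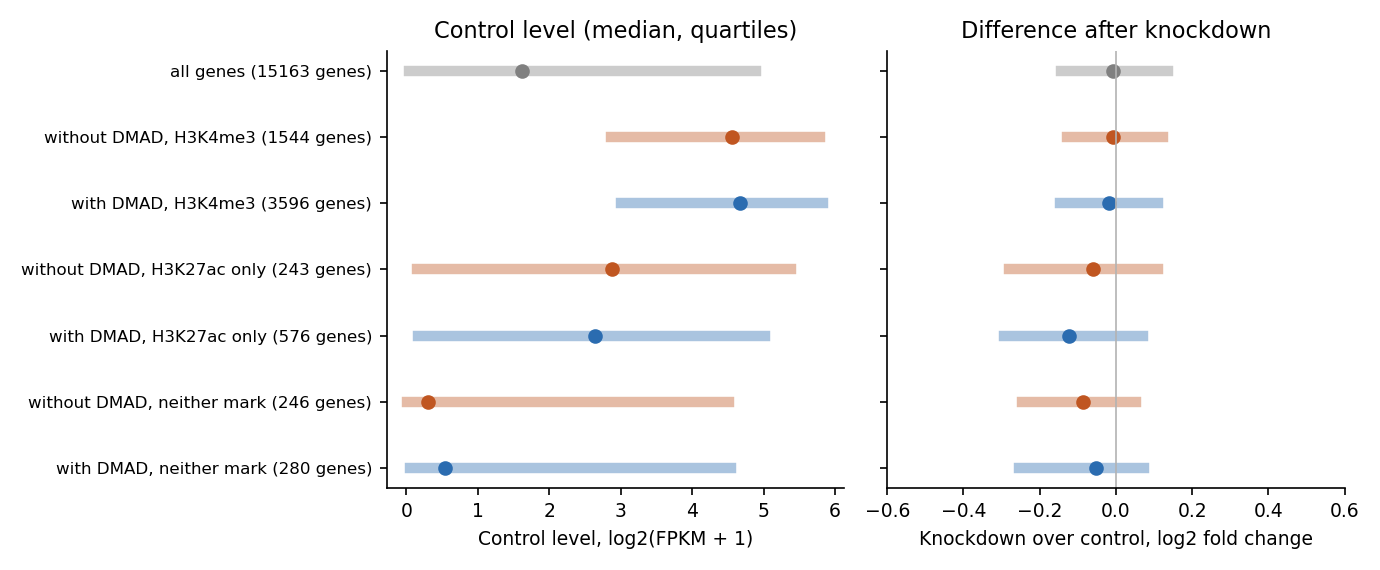
Left, control level as log2(FPKM + 1); right, log2 fold change of knockdown over control, for genes at Wds peaks of each class and all genes in BG3C2; points are medians and bars run from the lower to the upper quartile over genes. Levels are lower with neither mark than with H3K4me3 in both sets, and every median fold change lies near 0.

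The gene that rose was slow, which encodes the secreted protein Slowdown of muscle and tendon attachment. It measured 5.11 FPKM without and 17.8 FPKM with the knockdown in the authors' deposited table, a log2 fold change of 1.80 (Cuffdiff q = 0.0240). In brain it was 14.6 in control and 9.86 in knockout in the authors' deposited table, a difference that did not pass (q = 1.00). Its DMAD-free peak spanned 1074 bp at one end of the locus, from 4402930 on 3L, and carried H3K4me3. The gene that fell in brain was fray, a kinase gene needed for nerve ensheathment. Its FPKM there was 76.6 in control and 39.7 in knockout in the authors' deposited table, a log2 fold change of -0.95 (Cuffdiff q = 0.0184). In BG3C2 it was 27.6 and 26.1 in the authors' deposited table. Its DMAD-free peak, of 1811 bp, carried neither histone mark. Neither call was kept at a q below 0.01.

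The other genes with the largest differences did not pass adjustment. In the authors' deposited BG3C2 table the noncoding gene CR43334, whose locus spans part of the ban peak, went from 2.49 to 7.45 FPKM (log2 fold change 1.58). In the same authors' deposited table Hsromega, a stress-inducible noncoding RNA, went from 272 to 535 FPKM (0.97), and Fas3, an adhesion molecule, from 4.63 to 8.23 (0.83). In brain Hsromega had the opposite sign in the authors' deposited table, with 304 FPKM in control and 147 in knockout (unadjusted Cuffdiff p = 0.0011, q = 0.128). Among lower values in the authors' deposited BG3C2 table were CadN, the N-cadherin gene, with 28.7 and 15.3 FPKM (-0.91), otk, a transmembrane receptor gene, with 74.2 and 44.8 (-0.73), and sbb, a nuclear regulator, with 27.9 and 18.2 (-0.61). CG14516, at a peak in the knockdown H3K4me3 list only, had 6.02 and 2.62 FPKM in the authors' deposited table (-1.20). Wds peaks with DMAD also lay in the loci of CadN (1), otk (1) and sbb (8). The loci of CR43334, Hsromega, Fas3 and CG14516 held none.

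Gene groups were counted at both kinds of Wds peak. Of 88 ribosomal protein genes 28 (31.8%) held a DMAD-free peak, against 12.9% of all genes on the main arms, and 50 held a Wds peak with DMAD, against 26.8% of all genes. The genes at DMAD-free peaks included RpL41, RpL39 and RpS30, with control FPKM of 17141, 10814 and 4219 in the authors' deposited table. None of the 28 passed the test, and their median log2 fold change was 0.15. Of 35 axon guidance genes 10 (28.6%) held a DMAD-free peak and 12 a Wds peak with DMAD. They included the adhesion gene Fas2, with 116 and 85.1 FPKM in control and knockdown in the authors' deposited table. None of the 10 passed the test.

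Genes of chromatin complexes were mostly at Wds peaks with DMAD. Of 23 Polycomb group genes 18 held a Wds peak with DMAD and only E(z), the H3K27 methyltransferase gene, held a DMAD-free peak, which carried H3K4me3 and Pc. Of 29 trithorax group and COMPASS genes 17 held a Wds peak with DMAD and 2 a DMAD-free one. These 2 were kis, a chromodomain helicase gene, and mle, an RNA helicase gene of dosage compensation. The kis locus also held a Wds peak with DMAD, and the mle locus did not. Of 9 insulator protein genes 8 held a Wds peak with DMAD, and 1 of these 8, Chro, held a DMAD-free one as well. None of E(z), kis, mle and Chro passed the test, with log2 fold changes of 0.03, -0.36, -0.23 and -0.34 in the authors' deposited table.

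The remaining groups are to be read against the 12.9% of all genes at a DMAD-free peak, and most lay near it. The count was 10 of 56 translation genes (17.9%), 9 of 72 mitochondrial ribosomal protein genes (12.5%), 5 of 42 proteasome genes (11.9%), 4 of 27 splicing genes (14.8%), 5 of 36 replication and cell cycle genes (13.9%) and 4 of 30 stress genes (13.3%). It was 4 of 22 Notch pathway genes (18.2%), among them Su(H), the transcription factor of the pathway, and mam, its coactivator, and 4 of 26 neuroblast genes (15.4%). Among neuronal genes it was 2 of 22 (9.09%), elav and Syx1A, and among histone genes 0 of 41. It was 7 of 34 Polycomb targets (20.6%) and 7 of 47 immune genes (14.9%). Only 1 of these 7 Polycomb targets and 3 of these 4 neuroblast genes were tested in BG3C2, while the counted genes of the other groups all were. None of the tested genes passed. Among the immune genes pirk, an inhibitor of the Imd pathway, had 56.5 and 94.5 FPKM in the authors' deposited table (log2 fold change 0.74, unadjusted Cuffdiff p = 0.01025).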

How the data were processed

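Region lists and gene tables were used as deposited; the members and gene lists were chosen with earlier results of these data known. The tools, per the submitters' processing notes, were MACS 1.4.2, Cuffdiff 2.2.1, TopHat2 2.0.8, Bowtie 0.12.9, CASAVA 1.4 and bedtools, with build dm3 (mm9 also appears); the notes as read carry no settings. The H3K4me3, H3K27ac and Pol II lists carry a deposited score per peak, which the MACS layout gives as -10 log10 of p and which ranked peaks within a list only. The DMAD, Pc, Wds and gained 6mA lists were used for positions; gained windows of BG3C2, whose starts end in 001, were read as counting from 1 and the others from 0. Per the file headers, the authors' Cuffdiff tables give FPKM, a log2 fold change of the perturbed over the control group, and p-values and q-values, with 1 FPKM per gene and group. A gene was called at the authors' q below 0.05. 

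Overlap meant at least 1 bp on the 6 arms. Shares carry 95% Wilson intervals and their differences 95% Newcombe intervals, which cover counting error only; depth is unknown. The overlap and interval functions were tested on simulated data. Genes were assigned by the deposited locus, which lacks strand and can merge overlapping genes. Of 15163 symbols, 11639 (76.8%) are in RefSeq. Named genes were those called, the 6 with the largest differences in each direction at an unadjusted p below 0.05 with 1 FPKM or more in each group, the target and wds, and for each gene list up to 4 of highest control FPKM; among these Antp and the genes printed only as a peak's place were named through their peak. Named regions were the widest of each kind, the nearest to and farthest from DMAD, and the densest 50 kb. Class, arm and distal 3L comparisons and the split by Pc were added after the data were seen. The planned motif search was not run, since no sequence of this build was used here. Python 3.11.15, pandas 2.3.3 and numpy 2.4.6 were used.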

Additional observations from a re-analysis of the deposited data

How the results depend on the processing

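The differences for Pc, Pol II, H3K27ac and the share on X kept their direction and their side of the threshold under every alternative run for them. The brain 6mA difference was past counting error under none, and ranged from -1.91 to 0.889 points. For H3K4me3 in the control list, 5.26 points resulted with the rule at DMAD cover under 50%, 4.59 within width bins and -13.9 with the upper 50% of scores; in the knockdown list the same settings gave 6.03, 5.77 and -14.6 points. Gained 6mA in BG3C2 gave 3.28 points at a cover of 50% and 3.47 within width bins, but -1.56 with DMAD cover under 50%, and gene loci 2.01 points with DMAD cover under 50%. The control-only share for H3K4me3 was 0% and the knockdown-only share 0.233% with the upper 50% of scores, and the latter 3.72% at a cover of 50%. With loci that overlap no other, which leaves fewer genes, the BG3C2 median log2 fold change was 0.00064, 6 genes were higher and 4 lower at an unadjusted p, and the control FPKM was 29.4; in brain 0 genes were called lower, 4 were lower at an unadjusted p and the FPKM was 21.7, all from the authors' deposited tables. Genes with no Wds peak with DMAD gave 3 lower in BG3C2. At a q below 0.01 no gene was called higher in BG3C2 (0) or lower in brain (0), nor lower in brain at a log2 fold change of at least 1 (0). Median width was 1293 bp with DMAD cover under 50%. The cause of these shifts was not tested. No paired analysis was possible because the tables give 1 value per group and the lists are merged; for the same reason no library could be left out. Unknown depth limits every statement on a missing peak.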
